A study of Mus musculus with 6 samples.

Results

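The 10 genes examined here encode ubiquitin editors of NF-kB signalling and their partners: Tnfaip3 (A20), its partners Tnip1, Tnip2, Tax1bp1 and Itch, the deubiquitinase gene Cyld, the inhibitor of apoptosis genes Birc2 and Birc3, and the adaptor genes Traf1 and Traf2. These members were chosen by symbol, and all 10 had values among the 19938 genes with a single symbol on the array, through 11 of its 35512 probe sets. A probe set is a group of probes summarised to 1 intensity for a transcript. The measurements came from a mouse leukemia cell line named for the MLL-AF10 fusion. In that fusion the histone methyltransferase gene MLL (Kmt2a) is joined to AF10 (Mllt10). All cells were grown in RPMI with serum and WEHI conditioned medium. Total RNA of 3 samples treated with 0.5 µM of an IKK inhibitor and of 3 samples treated with vehicle was read on 6 whole-transcript arrays. The sources used here do not give the compound's name or how long it was applied, and the labels name a single cell line. Nothing states that the samples of a group were separate cultures. The p-values set the difference between groups against the spread within them, which could be technical only, so they may not carry over to new cultures. The small number of arrays also limits the precision.

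Signals from TNF, Toll-like and interleukin-1 receptors are carried to the IKK kinases on chains of ubiquitin that are built at the receptor complexes. TRAF proteins and the cellular inhibitors of apoptosis encoded by Birc2 and Birc3 build or recruit these chains, while A20 and CYLD remove or edit them and so end the signal. IKK then phosphorylates the IkB proteins, which releases NF-kB into the nucleus. Tnfaip3, Birc3 and Traf1 are known NF-kB target genes in many cell types, so A20 is part of a negative feedback loop. In myeloid cells of the mouse, loss of A20 leads to inflammation.

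Of the 10 members, 3 rose with the IKK inhibitor and 0 fell. Those that rose were Tnfaip3, Tnip1 and Birc3, with fitted folds over vehicle of 1.37, 1.36 and 1.37 on the linear scale. The other 7 did not pass an adjusted p of 0.05 in limma, with differences between -0.15 and 0.18 on the log2 scale. Over all 19847 genes tested, 13.9% passed, 7.10% higher and 6.75% lower with the inhibitor. At an unadjusted p under 0.05, 4 members were higher and 1 was lower, beside 27.2% of all genes. The median log2 fold change, inhibitor minus vehicle, was 0.14 over the members and 0.01 over all genes. In 6 of the 10 members the groups did not overlap, beside 32.9% of all genes.

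Array medians lay between 112 and 124, and no 2 arrays held the same values. Monocyte and macrophage marker genes moved with the same contrast. Of 13 such markers tested, 11 were called higher and 0 lower, and their summed intensity was 19300 to 20552 on the inhibitor arrays, against 10761 to 11176 on the vehicle arrays. Neutrophil and granulocyte progenitor markers moved in both directions: 5 of 12 tested were higher and 4 lower, with log2 fold changes of 0.84 for S100a8 and 0.74 for Ngp, and of -0.56 for Ms4a3 and -2.62 for Mpo, which encodes myeloperoxidase. Of 8 genes listed as progenitor markers or MLL fusion targets, 0 were higher and 2 lower, Kit (-0.54) and Cd34 (-0.30), each of which passed in 2 of the 6 fits that left out 1 array. The part of these shifts in the values below was not tested, and in RNA of whole cultures a different mix of cells cannot be told apart from a different level per cell. Among the genes that mark such leukemia cells, Hoxa9 (1751 to 1817 on inhibitor arrays, 1903 to 1989 on vehicle arrays) and Meis1 (1054 to 1152 and 1051 to 1111) were bright. Others were read at lower intensities: Kit had 210 to 280 on inhibitor arrays and 344 to 372 on vehicle arrays. Cd34 had 189 to 199 and 227 to 256, and Flt3 had 70.5 to 75.9 and 71.8 to 80.0. Intensities of different probe sets do not rank these genes by amount of RNA. Summed T cell markers (6 tested, 597 to 725 on inhibitor arrays against 621 to 749 on vehicle arrays) and B cell markers (5 tested, 466 to 518 against 449 to 507) overlapped between the groups. Stromal markers (5 tested) spanned 591 to 708 on inhibitor arrays and 614 to 742 on vehicle arrays, and limma called none of these 16 markers, with 1 B cell marker lower at an unadjusted p under 0.05. The deposited values have no detection calls and no value of 0, so these genes cannot be called absent.

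A20, the product of Tnfaip3, joins a deubiquitinase domain and a ubiquitin ligase activity in a single protein. Tnfaip3 was read by probe set 10368144 at intensities of 690.4, 737 and 709 on the inhibitor arrays, against 497, 523 and 536 on the vehicle arrays. Every inhibitor array lay above every vehicle array, with a gap wider than the spread within either group. The means were 712 ± 23.3 with the inhibitor and 519 ± 20.0 with vehicle (SD, n = 3 each). On the log2 scale Tnfaip3 rose by 0.46 ± 0.05 (SE, 95% interval 0.33 to 0.59), with an adjusted p of 0.00318 by limma. Of all genes tested, 554 (2.79%) had a larger log2 fold change.

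Tnip1 encodes ABIN1, a ubiquitin-binding adaptor that brings A20 to its substrates. Its probe set 10385941 gave 732, 779 and 688 on the inhibitor arrays, against 549, 529 and 536 on the vehicle arrays. The groups did not overlap, and the inhibitor arrays were more spread than the tight vehicle arrays. The mean was 733 ± 45.4 with the inhibitor and 538 ± 10.04 with vehicle (SD, n = 3 each). Tnip1 rose by 0.44 ± 0.06 on the log2 scale (SE, 95% interval 0.30 to 0.59, adjusted p = 0.00523 by limma), and 587 genes (2.96%) had a larger log2 fold change.

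Birc3 encodes cIAP2, a RING ubiquitin ligase of the TNF receptor complexes. Probe set 10590801 read it at 807, 898 and 737 on the inhibitor arrays, against 571, 597 and 614 on the vehicle arrays. The groups were again separate, while the inhibitor arrays spanned a wide range with replicate 2 highest. The mean was 814 ± 80.3 with the inhibitor and 594 ± 21.6 with vehicle (SD, n = 3 each). Birc3 rose by 0.45 ± 0.08 on the log2 scale (SE, 95% interval 0.26 to 0.64), with an adjusted p of 0.0137 by limma. The call was lost when some arrays were left out: the adjusted p was 0.0542 without inhibitor replicate 1, 0.0508 without vehicle replicate 1 and 0.0575 without vehicle replicate 2, with log2 fold changes of 0.45, 0.42 and 0.46. Tnfaip3 and Tnip1 passed whichever array was left out.

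**Figure D1:**
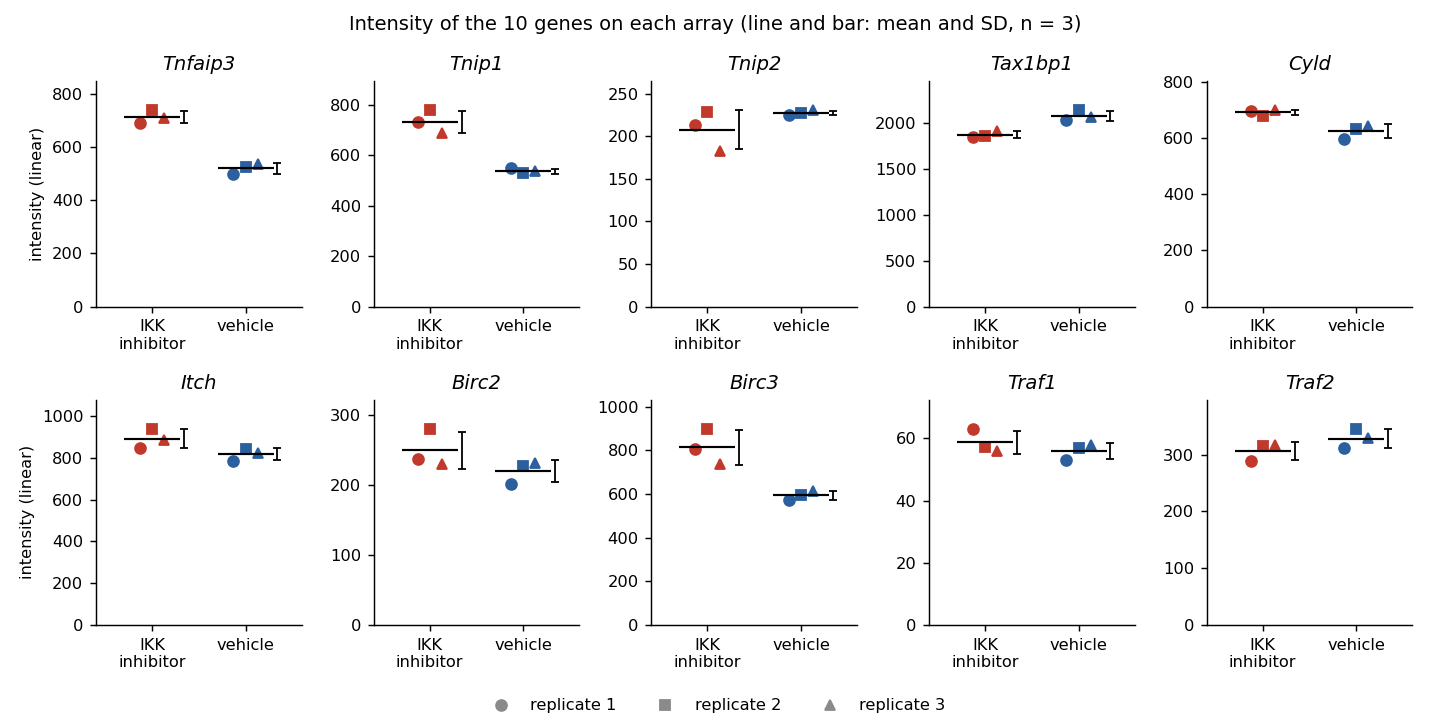
Deposited intensity (linear scale from 0, 1 panel per gene) of the 10 genes on the 3 inhibitor arrays (red, left) and the 3 vehicle arrays (blue, right), with marker shape for the replicate number and the mean and SD in black. Tnfaip3, Tnip1 and Birc3 show the wide gaps between groups, with inhibitor means of 712, 733 and 814 against vehicle means of 519, 538 and 594, while Tnip2, Birc2, Traf1 and Traf2 overlap.

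The sequence just upstream of the annotated transcription start is shown for the 3 genes that rose and for Cyld, because NF-kB binds a known 10-base consensus. This consensus was searched on both strands in the 250 bases before each start. RefSeq promoter windows (build GRCm38.p6) were held for 9 of the 10 members, 12 windows in all, as 3 members have more than 1 start, and 3 of the 12 held a match. Of all 32851 windows of that table, 3.90% held a match. Counted by gene, 5.05% of the 15567 tested genes with a window had a match, and 7.92% of the 1136 called higher. Some members are known NF-kB target genes, and whether their share differs from these was not tested. The 160 bases before the start follow, 5′ to 3′ on the strand of the gene, with matches in capitals. They lie at chr10:19015411-19015570 (minus strand) for Tnfaip3, chr11:54962941-54963100 (minus strand) for Tnip1, chr9:7873171-7873330 (minus strand) for Birc3 and chr8:88696868-88697027 (plus strand) for Cyld.
Tnfaip3: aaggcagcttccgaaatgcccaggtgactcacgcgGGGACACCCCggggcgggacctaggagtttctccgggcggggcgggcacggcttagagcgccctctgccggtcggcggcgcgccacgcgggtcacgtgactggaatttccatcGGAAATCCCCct
Tnip1: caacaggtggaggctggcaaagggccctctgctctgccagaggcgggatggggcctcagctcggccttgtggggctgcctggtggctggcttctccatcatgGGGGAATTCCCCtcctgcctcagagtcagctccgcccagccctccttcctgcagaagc
Birc3: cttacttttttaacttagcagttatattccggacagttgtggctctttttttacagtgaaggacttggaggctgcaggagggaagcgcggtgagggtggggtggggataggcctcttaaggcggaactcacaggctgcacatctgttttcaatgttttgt
Cyld: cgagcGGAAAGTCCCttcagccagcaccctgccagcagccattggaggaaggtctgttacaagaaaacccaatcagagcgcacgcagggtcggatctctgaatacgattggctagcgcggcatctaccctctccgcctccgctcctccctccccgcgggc

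In Tnfaip3 the match GGGACACCCC began 125 bases and the match GGAAATCCCC 12 bases before the upstream start, and GGAAATCCCC reads as the consensus on the opposite strand. The other Tnfaip3 start had none in its window. In Tnip1 the run GGGGAATTCCCC held overlapping matches on both strands, the first beginning 58 bases before the start. Cyld, which did not pass the test, had the single match GGAAAGTCCC beginning 155 bases before its start. Birc3, which rose, had none in the 250 bases searched. The windows of Tnip2, Tax1bp1, Birc2, Traf1 and Traf2 also had none, which says only that these letters are not in these windows. Itch was not in the table. A match is a stretch of letters and was not measured as a binding site here.

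**Figure D2:**
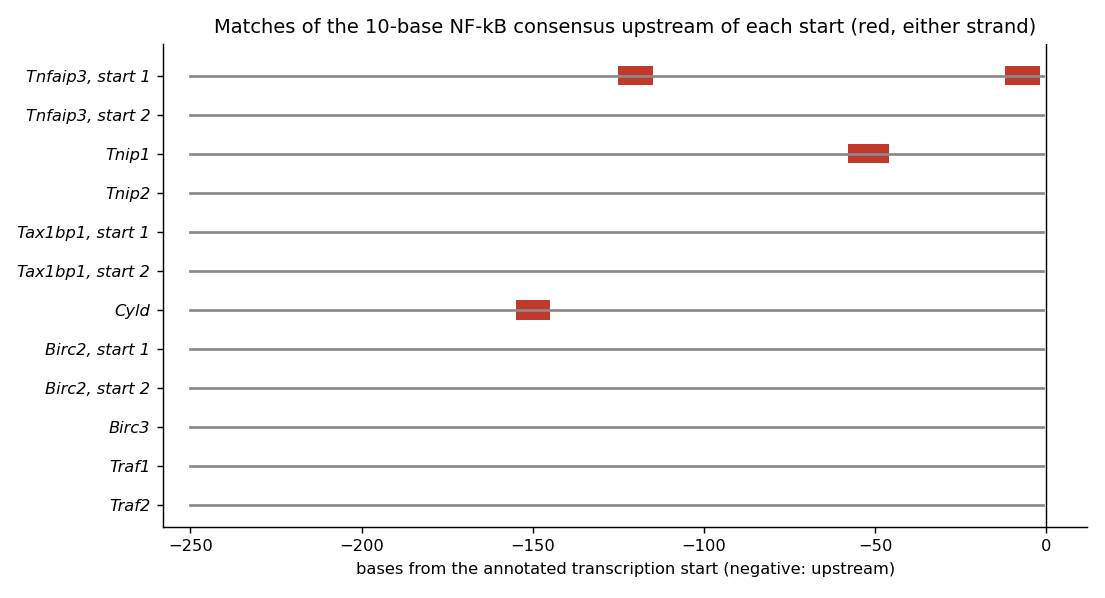
Position of matches to the 10-base NF-kB consensus (red blocks, either strand) in the 250 bases upstream of each annotated start (horizontal lines, 1 per start) of the 9 members with a RefSeq window, with the distance from the start in bases on the x axis. Matches stand at Tnfaip3 (125 and 12 bases before the start), Tnip1 (overlapping, from 58) and Cyld (155), and the other 9 windows hold none.

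The other partners of A20 did not pass the test. Tnip2 encodes ABIN2, a relative of ABIN1 that also binds A20. Its values were 213, 228 and 183 on the inhibitor arrays, against 225, 227 and 230.2 on the vehicle arrays. Inhibitor replicate 2 fell within the vehicle range and the other inhibitor arrays below it, so the groups overlapped. Tnip2 had a fitted log2 difference of -0.14 (95% interval -0.34 to 0.06, adjusted p = 0.363 by limma).

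Tax1bp1 encodes a ubiquitin-binding adaptor that links A20 and Itch to their targets and also serves as a receptor of selective autophagy. It gave 1847, 1862 and 1920 on the inhibitor arrays, against 2036, 2142 and 2067 on the vehicle arrays. Each inhibitor array lay below each vehicle array, the single member with this order. The fitted log2 difference of Tax1bp1 was -0.15 ± 0.05 (SE, 95% interval -0.26 to -0.03), with an adjusted p of 0.0932 by limma. A robust prior with an intensity trend (adjusted p = 0.00455), array weights (0.0317) and a floor of 64 (0.0471) each called it lower, settings in which 21.2%, 21.8% and 20.3% of all genes were called.

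Itch, a ligase of the HECT class that works with A20, gave 848, 938 and 887 on the inhibitor arrays, against 785, 843 and 823 on the vehicle arrays. The groups were separate by a narrow margin, 848 against 843 at the nearest. Its fitted difference on the log2 scale was 0.12 (95% interval -0.01 to 0.26), which did not pass (adjusted p = 0.234 by limma).

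CYLD removes linear and other ubiquitin chains from signalling complexes. Cyld gave 697, 680.2 and 699 on the inhibitor arrays, against 598, 632 and 645 on the vehicle arrays. The inhibitor arrays agreed closely and all lay above the vehicle arrays. For Cyld the log2 fold change was 0.15 ± 0.05 (SE, 95% interval 0.03 to 0.27), with an adjusted p of 0.113 by limma, and of 0.0363 where the prior was robust and followed an intensity trend.

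Birc2, the neighbour of Birc3 on chromosome 9, encodes the related ligase cIAP1. Its brighter probe set 10590791 gave 238, 280.2 and 231 on the inhibitor arrays, against 202, 227 and 232 on the vehicle arrays. The highest inhibitor array was again replicate 2, and inhibitor replicate 3 lay below the highest vehicle array. With a log2 fold change of 0.18 (95% interval -0.04 to 0.40), Birc2 did not pass (adjusted p = 0.285 by limma). A dimmer probe set annotated to a single Birc2 transcript, 10590799, had means of 124 ± 3.45 with the inhibitor and 121 ± 7.45 with vehicle (SD, n = 3 each). Tested as a probe set of its own, it had a log2 fold change of 0.04 (adjusted p = 0.771 by limma).

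TRAF2 is the adaptor that recruits cIAP1 and cIAP2 to TNF receptors, and TRAF1 is a relative that lacks the RING domain. Traf1 was read at low intensities, with 63.1, 57.2 and 55.9 on the inhibitor arrays against 53.2, 57.1 and 58.0 on the vehicle arrays. Only inhibitor replicate 1 lay above the vehicle range. Traf1 had a fitted log2 difference of 0.06 (95% interval -0.09 to 0.22, adjusted p = 0.612 by limma), and a floor of 64 or a filter at the 25th percentile of intensity left Traf1 untested. Traf2 gave 288, 314 and 317 on the inhibitor arrays, against 311, 345 and 329 on the vehicle arrays. These overlapped, and the log2 fold change of Traf2 was -0.10 (95% interval -0.25 to 0.05, adjusted p = 0.395 by limma).

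**Figure D3:**
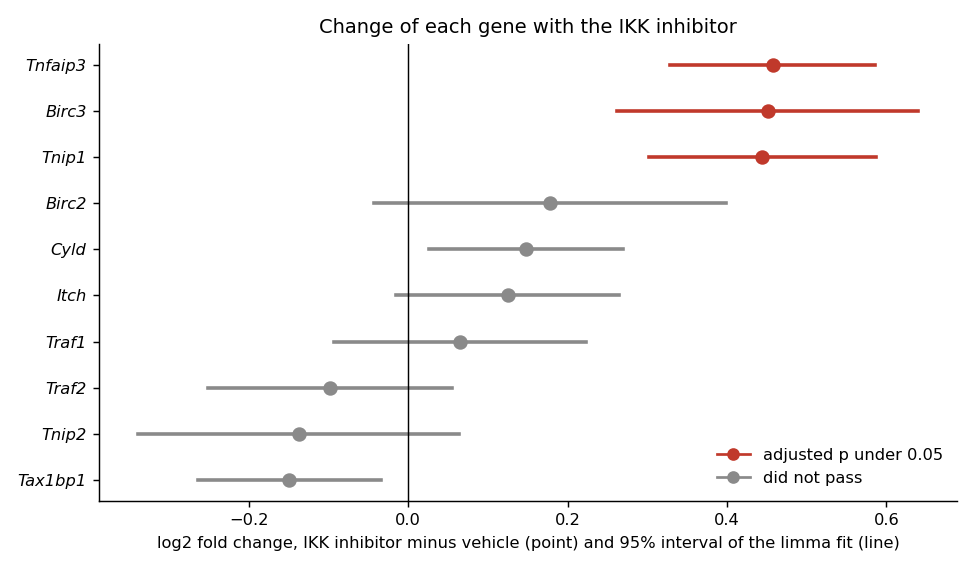
Log2 fold change (inhibitor minus vehicle, points) of the 10 genes with the 95% interval of the limma fit (lines), ordered by size, with calls in red. Tnfaip3, Birc3 and Tnip1 stand together at 0.46, 0.45 and 0.44, and the other 7 lie between -0.15 and 0.18.

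Replicate 2 was the highest inhibitor array for 6 of the 10 members (Tnfaip3, Tnip1, Tnip2, Itch, Birc2 and Birc3), beside 32.04% of all genes tested. Without that array the median log2 fold change of the members was 0.09, beside 0.03 over all genes. The coefficient of variation within a group ran between 1.05% and 11.1% over the members.

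Whether related members changed unequally was tested within arrays, as the difference between their log2 intensities on the same array. The differences of level between 2 probe sets have no meaning of their own, but their shift between groups does not depend on the scaling of an array. For 6 pairs this was computed, and with 3 arrays against 3 the exact permutation test cannot give a 2-sided p below 0.1, or 0.12 after adjustment over the pairs. In 5 of the 6 pairs the groups did not overlap and the exact p was 0.1 (adjusted 0.12), so none passed 0.05. Each of these 5 pairs holds Tnfaip3, Tnip1 or Birc3, the members called higher. The shift of a pair is the difference between the log2 fold changes of its members, so it is not separate evidence. No share over other pairs of genes was computed, while 32.9% of single genes had groups that did not overlap.

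The largest shift was that of Tnfaip3 against Tax1bp1, where the difference was -1.42, -1.34 and -1.44 on the inhibitor arrays, against -2.03, -2.03 and -1.95 on the vehicle arrays, a shift of 0.61 on the log2 scale. Tnip1 against Tnip2 shifted by almost as much, 0.58, with differences of 1.78, 1.77 and 1.91 on the inhibitor arrays against 1.28, 1.22 and 1.22 on the vehicle arrays. Every inhibitor array lay above every vehicle array in both pairs.

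Tnfaip3 shifted by 0.33 against Itch and by 0.31 against Cyld. For the neighbouring genes Birc3 and Birc2 the difference was 1.765, 1.680 and 1.676 on the inhibitor arrays, against 1.502, 1.396 and 1.404 on the vehicle arrays, a shift of 0.27. Traf1 against Traf2 overlapped between the groups, with a shift of 0.16 and an exact permutation p of 0.2.

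**Figure D4:**
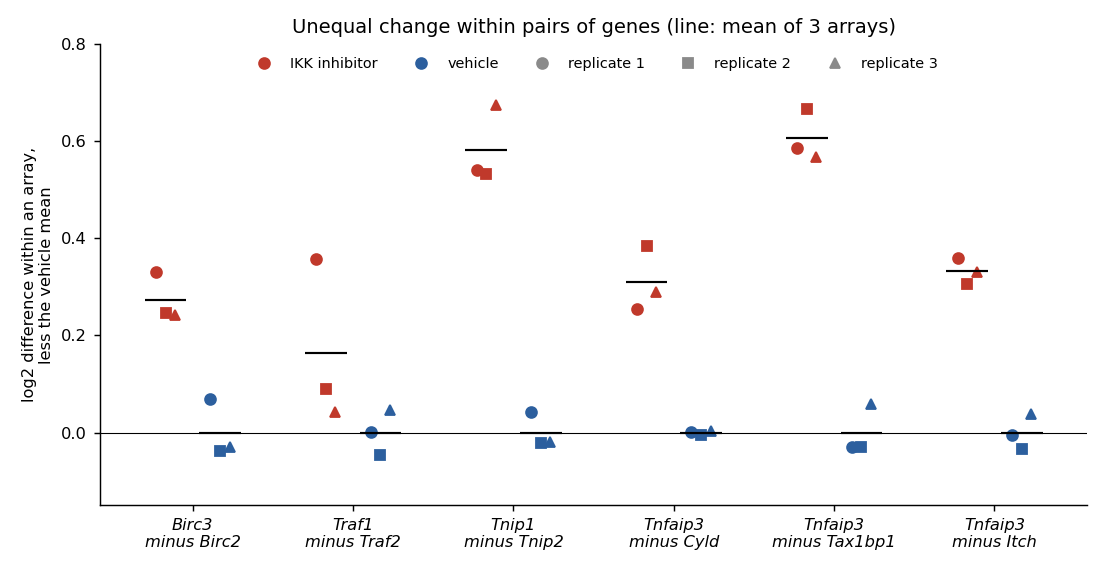
Difference of log2 intensity between 2 genes on the same array, less the vehicle mean (y axis), for 6 pairs, with inhibitor arrays in red on the left, vehicle arrays in blue on the right, marker shape for the replicate number and black lines for group means. The inhibitor arrays lie above all vehicle arrays in 5 pairs, with shifts between 0.27 and 0.61, and overlap them in Traf1 minus Traf2.

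The genes whose 6 values ran closest to a member were found by the root mean square difference of log2 values, each gene less its own vehicle mean. The search covered 15262 genes with a mean intensity of at least 64, without predicted genes (Gm, LOC and Rik names). For Tnfaip3 these were Snx10, Cd28, Bnip3, Ptprs and Fam214b, with differences of 0.02 to 0.03. For Tnip1 they were Cln3, Bcl2l11, Man1c1, Icam1 and Irak2 (0.01 to 0.03), and for Birc3 they were Arhgef3, Irak2, Ttc12, Galc and Dnajb14 (0.03 to 0.04). Irak2, which encodes a kinase of Toll-like and interleukin-1 receptor signalling, stood in the lists of both Tnip1 and Birc3. Fold changes of these genes are like those of the member by construction, and members with similar values can share a neighbour for the same reason.

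Around the members, 79 genes of 9 lists of the ubiquitin and NF-kB machinery were tested, and 16 rose and 4 fell. This is 25.3% called beside 13.9% of all genes, but the lists were chosen with earlier results of these data known. With a floor of 64, which left dim genes untested, 18 listed genes rose and 5 fell, beside 20.3% of all genes called. The median log2 fold change of the 79 genes was 0.06. The 16 that rose included 4 of the IkB and subunit genes and 3 Naip genes. None of the LUBAC, deubiquitinase or ubiquitin-conjugating enzyme genes was called higher (1 at an unadjusted p under 0.05). Over all genes 7.10% were called higher, and in lists this small a count of 0 is close to that share. The counts of single lists below are to be read beside 13.9% of all genes called, and 27.2% at an unadjusted p under 0.05. The lists are small, and whether any differs from those shares was not tested.

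The linear ubiquitin chain assembly complex, LUBAC, is made by Rnf31 (HOIP), Rbck1 (HOIL-1) and Sharpin. Of the 3 genes, 1 fell and 0 rose, the same counts as at an unadjusted p under 0.05, with a median log2 fold change of -0.10. Rbck1 gave 1127, 1194 and 1103 on the inhibitor arrays against 1292, 1344 and 1344 on the vehicle arrays, a log2 fold change of -0.22 (adjusted p = 0.0387 by limma). The Rbck1 groups were separate, but without 1 array the call held only when inhibitor replicate 2 was left out (adjusted p = 0.0315), and the values were 0.128 and 0.0936 without inhibitor replicates 1 and 3 and 0.0771, 0.133 and 0.131 without vehicle replicates 1, 2 and 3. It was also lost with median centring (0.106). Rnf31 (-0.10) and Sharpin (-0.04) did not pass.

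Of 13 other deubiquitinases and their adaptors, 1 fell and 0 rose (3 and 1 at an unadjusted p under 0.05), with a median of -0.05. The one called was Usp18, the protease that removes the ubiquitin-like modifier ISG15 and an interferon-inducible gene, with 275, 342 and 249 on the inhibitor arrays against 504, 503 and 534 on the vehicle arrays. All inhibitor arrays were far below the vehicle arrays, and the log2 fold change was -0.85 ± 0.11 (SE, adjusted p = 0.00528 by limma). Otulin, which encodes the protease specific for linear chains, stood at 0.07 on the log2 scale (95% interval -0.08 to 0.22). Spata2, which encodes the bridge between CYLD and LUBAC, stood at -0.17 (95% interval -0.31 to -0.03). Neither passed, although a robust prior with an intensity trend called Spata2 (adjusted p = 0.0395).

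Of 14 other ligases and A20 partners 3 rose and 0 fell (6 and 0 at an unadjusted p under 0.05), with a median log2 fold change of 0.11. Tnip3, the third ABIN gene, gave 1473, 1527 and 1212 on the inhibitor arrays against 1038, 1011 and 1082 on the vehicle arrays. Its groups were separate with a wide inhibitor spread, and the log2 fold change of 0.42 ± 0.09 (SE, adjusted p = 0.0284 by limma) was close in size to that of Tnip1. Without 1 array Tnip3 passed only when inhibitor replicate 3 was left out (adjusted p = 0.00873), and otherwise gave 0.101 and 0.0569 without inhibitor replicates 1 and 2 and 0.0821, 0.106 and 0.0755 without vehicle replicates 1, 2 and 3.

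Traf5 (0.19, adjusted p = 0.0431) and the Pellino ligase gene Peli2 (0.26, adjusted p = 0.0316) were called over all arrays but not when any array was left out, at adjusted p between 0.0741 and 0.139 for Traf5 and between 0.0508 and 0.112 for Peli2. Neither passed when arrays were scaled by quantile normalization (0.133 and 0.063) or centred on their medians (0.293 and 0.154). Traf6, the ligase of the Toll-like and interleukin-1 receptor pathways, did not pass, at -0.11 on the log2 scale (95% interval -0.21 to 0.0031). Of 7 ubiquitin-conjugating enzymes none passed an adjusted p of 0.05 by limma, and 1 was lower at an unadjusted p under 0.05. Ube2n, which makes chains with TRAF6, had a log2 fold change of -0.02 whose sign turned to 0.017 with array weights.

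Among 8 genes of the inhibitor of apoptosis family and its antagonists, 3 rose and 2 fell, with a median of 0.08. The 3 that rose were Naip2 (0.35), Naip5 (0.29) and Naip6 (0.38), which sense bacterial proteins for the inflammasome and, as members of a cluster of similar genes, are reported as uncertain. Naip5 did not pass without inhibitor replicate 1 (adjusted p = 0.0674), vehicle replicate 1 (0.0559) or vehicle replicate 3 (0.0692), or with median centring (0.0661).

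The 2 that fell were Birc5 and Htra2. Birc5, which encodes survivin of dividing cells, fell by 0.24 over all arrays but did not pass when any array was left out (adjusted p between 0.055 and 0.117) or with median centring (0.0516). Htra2, which encodes a mitochondrial protease that antagonises these inhibitors, fell by 0.29, with an adjusted p of 0.0545 without inhibitor replicate 1 and 0.0575 without vehicle replicate 2. Xiap, a family member that inhibits caspases directly, did not pass, at 0.11 on the log2 scale (95% interval -0.03 to 0.25).

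At the TNF receptor complexes, where the members act, 2 of 13 genes rose and 0 fell (3 and 0 at an unadjusted p under 0.05), with a median of 0.03. Tnf gave 1782, 1772 and 1784 on the inhibitor arrays against 1321, 1308 and 1360.5 on the vehicle arrays. The Tnf groups were tight and far apart, with a log2 fold change of 0.42 ± 0.05 (SE, adjusted p = 0.00218 by limma). Tnfrsf1b, the receptor that recruits TRAF2 directly, rose by 0.60 on the log2 scale. Tnfrsf1a (0.14) and its adaptor Tradd (-0.04) did not pass, although Tnfrsf1a was called with array weights (adjusted p = 0.0484) and with a robust prior and intensity trend (0.0197).

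In the noncanonical pathway, which cIAP and TRAF proteins hold in check by degrading the kinase NIK, 2 of 9 genes rose and 0 fell (3 and 0 at an unadjusted p under 0.05), with a median of 0.04. These were Nfkb2 (log2 fold change 0.49) and Relb (0.29), the subunits of that pathway. Relb did not pass without inhibitor replicates 1 and 3 (adjusted p = 0.0713 and 0.0507) or vehicle replicates 1 and 3 (0.06 and 0.0666), or with median centring (0.0722). Map3k14, which encodes NIK, did not pass (adjusted p = 0.105 by limma), at 0.18 on the log2 scale (95% interval 0.04 to 0.33).

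IkB proteins bind NF-kB: Nfkbia and Nfkbie encode inhibitors that hold it in the cytoplasm, while Nfkbiz and Nfkbid encode nuclear members known as co-regulators of its target genes. Of 8 IkB and subunit genes tested, 4 rose and 0 fell (6 and 0 at an unadjusted p under 0.05), with a median of 0.28. Nfkbie gave 289, 340 and 313 on the inhibitor arrays against 200, 207 and 232 on the vehicle arrays, and Nfkbiz 328, 326 and 283 against 204, 225 and 206. Both had separate groups and a log2 fold change of 0.56. Nfkbia rose by 0.36, as did Nfkbid, which did not pass without inhibitor replicate 3 (adjusted p = 0.0595) or vehicle replicates 1 and 3 (0.0598 and 0.068).

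Of the genes of selective autophagy receptors and their kinase listed beside Tax1bp1, 2 of 4 rose and 0 fell (4 and 0 at an unadjusted p under 0.05), with a median of 0.23. Sqstm1, which encodes the ubiquitin receptor p62, gave 3713, 3610 and 3702 on the inhibitor arrays against 2971, 2857 and 3052 on the vehicle arrays, a log2 fold change of 0.31 (adjusted p = 0.00921 by limma). Its groups were separate, in the direction opposite to those of Tax1bp1. Calcoco1 rose by 0.41, but had adjusted p = 0.0545 without inhibitor replicate 1, 0.0531 without vehicle replicate 2 and 0.0521 without vehicle replicate 3. Tbk1, which encodes a kinase of these receptors, did not pass, at 0.13 on the log2 scale. Traf3, Naip1, Ripk1, Nfkb1 and Optn are not analysed here.

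**Figure D5:**
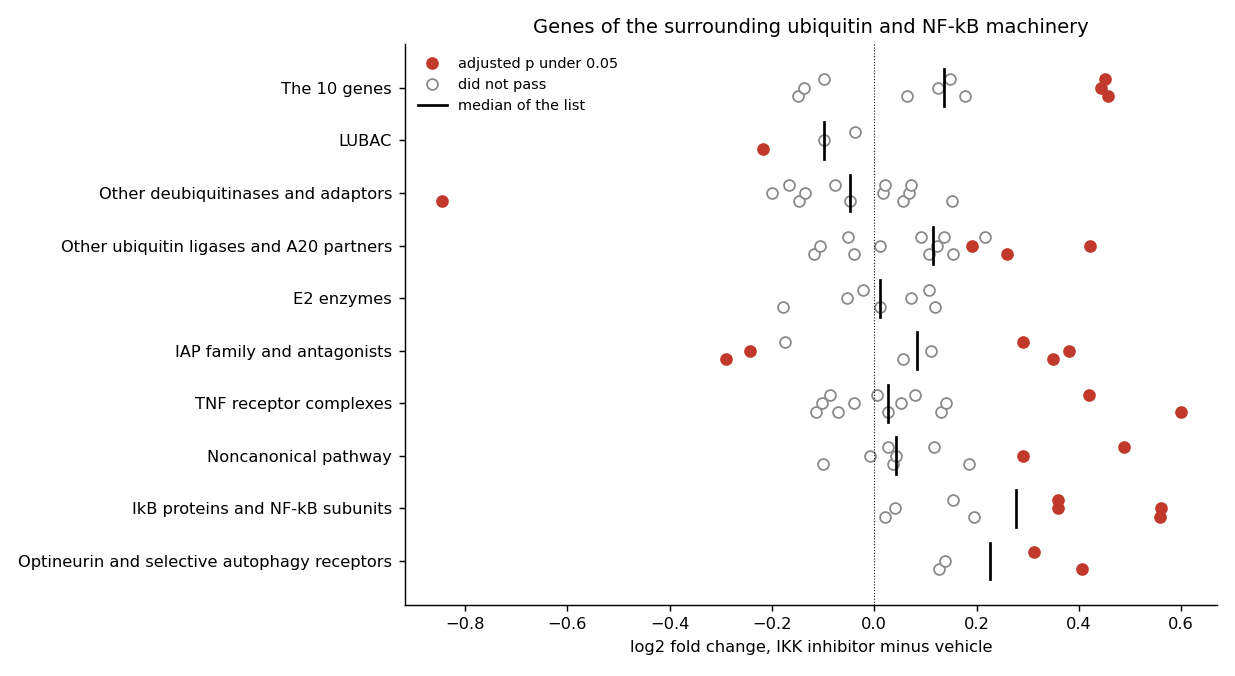
Log2 fold change (inhibitor minus vehicle, x axis) of the 10 genes and of the genes tested in 9 lists of the surrounding machinery, 1 point per gene, with calls filled in red and black bars for list medians. The medians run between -0.10 for LUBAC and 0.28 for IkB proteins and NF-kB subunits, beside 0.14 for the 10 genes, and Usp18 stands alone at -0.85.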

How the data were processed

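Biotin-labelled sense-strand targets of total RNA were hybridised to Affymetrix whole-transcript arrays, per the labels' protocols. Per the submitters' processing notes, the authors made the deposited intensity values in Affymetrix Expression Console. The sources used here give neither its version nor the background correction or normalization. The values ran from 0.71 to 8186 and were read as linear. Values under 16 were set to 16 (5.95% of values; no member had such a value) and log2 was taken. Names of probe sets came from the array platform's annotation (21789 with 1 symbol, 1621 with several, 12102 not listed), with symbols updated through Entrez numbers for 21698. The brightest probe set stood for a gene; members had 11 probe sets, and Birc2 alone had more than 1. The 19847 genes above the floor on any array were tested with limma 3.58.1 in R 4.3.3 (lmFit, eBayes, 2-sided, no covariates), adjusted by Benjamini-Hochberg over all of them, at a threshold of 0.05. SE and 95% intervals are of this fit. Groups came from the treatment label and replicate numbers from the title. Pairs of members were compared by an exact permutation test over arrays (scipy 1.17.1, 20 arrangements, 2-sided). All members were named; of each list, genes that passed and some of the first that did not, in list order, were named. The members, lists and floor were chosen with earlier results of these data known. Alternatives were a replicate block, quantile normalization, median centring, other filters and floors, log2 of intensity plus 16, the mean of probe sets, an intensity trend with robust prior, array weights, an adjusted p under 0.01 and leaving out each array. Simulated data were drawn from the means and spread of these 19847 genes. In them limma recovered 56 of 100 genes shifted by a log2 value of 0.5 and 91 of 100 shifted by 1. It also called 7 unshifted genes. The share of genes shifted was smaller than the 13.9% called in the data, which changes the adjustment. The recovered counts therefore do not give the power for the members.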

Additional observations from a re-analysis of the deposited data

How the results depend on the processing

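Tnfaip3 and Tnip1 were called higher in each of the 18 alternative settings that kept the threshold of 0.05, with log2 fold changes of 0.42 to 0.48 and 0.40 to 0.49. At an adjusted p under 0.01 these 2 members were called and Birc3 (0.0137) was not. Birc3 was called in 15 of the 18, and without 1 array its log2 fold change was between 0.38 and 0.52. With array weights, the trend and robust prior and the floor of 64, 1 member was called lower, Tax1bp1 (-0.17, -0.15 and -0.15), and the trend and robust prior also called Cyld higher (0.15). Itch, Birc2, Tnip2, Traf1 and Traf2 were called in no setting that tested them, and no member changed sign. Leaving out 1 array gave 2 to 3 members higher and 0 lower.

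The count of genes called was 2749 as reported, 984 at an adjusted p under 0.01, 1679 with a replicate block, 4199 with the trend and robust prior, 4334 with array weights and 1183 to 2810 without 1 array. Of the 79 pathway genes, 9, 10 and 25 were higher at an adjusted p under 0.01, with the replicate block and with the trend and robust prior, and 1, 2 and 8 were lower. Median centring gave 2 lower, and leaving out 1 array 9 to 13 higher and 1 to 5 lower. Ube2n had 0.017 with array weights and -0.074 to 0.058 without 1 array. The cause of these differences was not tested. The pairs kept their direction in each setting run.

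Deviations of same-numbered arrays from their group means correlated at 0.24, 0.13 and -0.09, so the numbers were not taken as pairs, and inhibitor arrays 2 and 3 correlated best with vehicle arrays 3 and 1. The replicate block left all 3 member calls in place, lowered the count of genes called, and ended the calls of Rbck1, Traf5, Peli2, Tnip3, Birc5, Naip5, Relb and Nfkbid (adjusted p between 0.0531 and 0.0942). Dim probe sets such as that of Traf1 have no detection call, which limits what their values can show.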
